A study of Homo sapiens with 4 samples.

Results

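The integrated stress response was followed through 10 genes: the kinases EIF2AK1, EIF2AK2, EIF2AK3 and EIF2AK4, the phosphatase subunits PPP1R15A and PPP1R15B, and the downstream regulators ATF4, ATF3, DDIT3 and TRIB3. They were taken by gene symbol from a table of 61806 genes, in which each symbol occurred once. RNA with a poly(A) tail was sequenced from 2 human cancer cell lines, MDA-MB-231 and MDA-MB-435, both labelled wild type and breast cancer cells. Each line had a sample labelled control and a sample after 10 µM CPYPP for 6 h. CPYPP is an inhibitor of DOCK proteins, which activate the GTPase Rac, and the study used it to induce paraptosis, a cell death with swollen vacuoles. There was 1 library for each of the 4 conditions, so no difference between a CPYPP library and its control has a replicate check, and a difference between the lines could also come from their separate cultures. The dose stands in a treatment description that gives MDA-MB-435 for all samples, so each library was assigned to a line by its own cell line label. In bulk RNA, a change in some cells and a change in all of them, or fewer cells of a kind and less RNA per cell, cannot be told apart.

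The 4 libraries held between 17196385 and 22663954 counts. MDA-MB-435 is widely held to be of melanoma origin, and the melanocyte regulator SOX10 had 3031 (control) and 707 (CPYPP) counts in the MDA-MB-435 libraries and 0 and 1 in the other pair. Of the other melanocyte markers, the pigment enzyme gene DCT had 658 and 464 counts in MDA-MB-435 against 1 and 3 in the other line, whereas TYR had at most 3 counts in any library. MITF, another melanocyte regulator, was counted in both lines and was lower with CPYPP in each, from 1585 to 690 counts in MDA-MB-231 (fold change 0.594) but from 1405 to 809 in MDA-MB-435 (0.742), with a common log2 change of -0.63 ± 0.13 (SE) and an adjusted p-value of 0.0198 in edgeR. PMEL and MLANA had at most 34 counts. KRT8, KRT18 and VIM were counted in both lines, with at least 310 counts each. The epithelial genes KRT19, EPCAM and CDH1 had between 287 and 3953 counts in MDA-MB-231 but between 0 and 4 in MDA-MB-435. SOX10 was also lower with CPYPP, at a fold change of 0.301 in MDA-MB-435, and the part of SOX10 and MITF in the members' values was not tested.

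When a cell senses misfolded protein in the endoplasmic reticulum, viral RNA, amino acid shortage or mitochondrial and heme stress, 1 of the 4 kinases phosphorylates the alpha subunit of the translation factor eIF2. Most protein synthesis then slows, while a few mRNAs, ATF4 among them, are translated more. ATF4 is a transcription factor that turns on genes of amino acid supply and redox defence, together with DDIT3 (CHOP), ATF3, TRIB3 and PPP1R15A. PPP1R15A closes the loop by bringing protein phosphatase 1 to eIF2-alpha. The activity of the kinases and the yield of ATF4 protein are set after transcription, and mRNA counts measure neither.

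Stretches upstream of 3 members are printed here because they carry sequences that stress-responsive factors are known to bind. They come from RefSeq windows of GRCh38.p14 that run from 250 bases before to 50 bases after a start site, read 5′ to 3′ on the strand of the gene. Capitals mark the match. The first holds TGATGNAA, a composite site for C/EBP and ATF proteins, 191 bases before an ATF3 start site (chr1:212565186-212565253, plus strand).
ATF3: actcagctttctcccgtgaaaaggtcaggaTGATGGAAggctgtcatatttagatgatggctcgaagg
The second holds TGACGTCA, the cAMP response element bound by CREB and ATF proteins, 58 bases before the PPP1R15A start site (chr19:48872333-48872400, plus strand).
PPP1R15A: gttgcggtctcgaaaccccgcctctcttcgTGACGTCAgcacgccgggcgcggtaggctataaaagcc
The third holds TGATGNAA again, 227 bases before the PPP1R15B start site (chr1:204412007-204412067, minus strand).
PPP1R15B: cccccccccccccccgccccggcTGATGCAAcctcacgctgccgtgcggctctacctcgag

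Across all 35116 windows of this length, 3.62% held TGATGNAA on either strand and 1.85% held TGACGTCA. Shares here are per window, whereas members are named per gene, and a gene can have several windows. Among members, 9 of 10 had a window, 14 windows in all. The member without one was EIF2AK1. TGATGNAA occurred in ATF3 and PPP1R15B and TGACGTCA in PPP1R15A. The antioxidant response element TGACNNNGC, which was present in 13.3% of all windows, occurred in PPP1R15A, 179 and 152 bases before its start site on opposite strands, and next to the TRIB3 start sites, where it lay after 2 of 3 of them. The interferon-stimulated response element, GAAA repeated after 2 bases, occurred in 3.57% of windows and in EIF2AK2 as GAAAACGAAA, from 6 bases before to the fourth base of the transcript. The ER stress response element (CCAAT, 9 bases, CCACG) was in 0.0769% of windows and in no member window. These matches describe letters in a window, and no binding was measured.

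Levels are given as FPKM, counts divided by exon length and by library size, with the library size scaled by the TMM method of edgeR over the 4 libraries. Their 95% intervals are exact Poisson intervals for counting error only. The exon length is that of all annotated exons together, from 1307 bases in DDIT3 to 20691 in EIF2AK3, so a gene with many rarely used exons appears lower than its main transcript would. In the MDA-MB-231 control library the order began with ATF4 at 58.8 FPKM (56.8 to 60.8) and PPP1R15A at 48.3 (46.7 to 49.95), followed by EIF2AK1 at 24.8 (24.0 to 25.7). EIF2AK2, PPP1R15B, DDIT3 and EIF2AK4 lay between 13.7 and 10.2 FPKM, and the intervals of PPP1R15B and DDIT3, and of DDIT3 and EIF2AK4, overlapped. TRIB3 followed at 3.28 FPKM, and ATF3 (1.57) and EIF2AK3 (1.48) were lowest, with overlapping intervals. In the MDA-MB-435 control library the first 4 places were the same, and ATF3 was last at 1.19 FPKM (0.982 to 1.43).

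After CPYPP the order changed at both ends. In MDA-MB-231, PPP1R15A came first at 173 FPKM (169 to 176), ahead of ATF4 at 88.2 (85.4 to 91.1). In MDA-MB-435, ATF4 stayed first at 288 FPKM (283 to 292) and PPP1R15A second at 155 (152 to 158), and ATF3 moved from the last place to the third at 30.8 (29.5 to 32.02). ATF3, DDIT3 (29.6 FPKM) and TRIB3 (27.7 FPKM) then stood side by side, and neighbours among these 3 could not be told apart by their intervals. EIF2AK3 was the lowest member in both CPYPP libraries, at 2.76 and 2.85 FPKM. Together the 10 members took up 0.0887% of all counts in the MDA-MB-231 control and 0.145% after CPYPP, whereas in MDA-MB-435 they went from 0.101% to 0.207%.

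**Figure D1:**
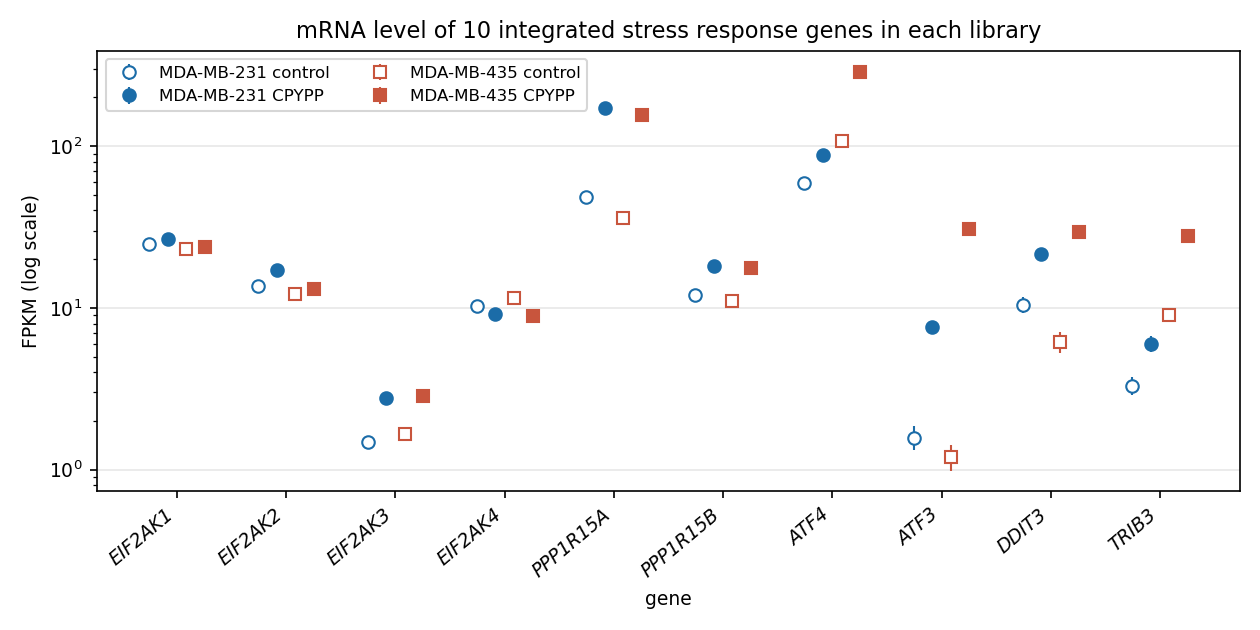
Level of each member in the 4 libraries, in FPKM on a log axis, with open symbols for control and filled symbols for CPYPP, circles for MDA-MB-231 and squares for MDA-MB-435; bars are 95% exact Poisson intervals for counting error, and many are shorter than the symbol. The kinases other than EIF2AK3 keep to narrow bands, while ATF3 runs from 1.19 to 30.8 FPKM and PPP1R15A from 36.0 to 173 FPKM.

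Within each line, the fold change after CPYPP was the ratio of TMM-normalized counts with a 95% exact binomial interval (Clopper-Pearson), which again covers counting error only. TMM was here computed from the libraries of that line alone, so a fold change can differ from the ratio of the FPKM values. A gene was called when its fold change was over 2 in either direction and its interval left out 1, provided that the gene reached 10 counts in 1 or both libraries of that line. All 10 members passed this minimum in both lines. In MDA-MB-231, 3 members were called higher (PPP1R15A, ATF3 and DDIT3) and 0 lower, where 4.52% of 16441 genes were called higher and 3.16% lower. In MDA-MB-435, 5 were called higher (the same 3 with ATF4 and TRIB3) and 0 lower, where 3.33% of 16527 genes were called higher and 6.52% lower. The median log2 fold change of the members was 0.74 and 1.17 in the lines, beside -0.01 and -0.02 over all genes tested. At any size of change, 9 members had an interval above 1 in each line, as had 26.3% and 29.0% of genes, and EIF2AK4 had one below 1, as had 23.2% and 25.1%.

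For a statement over both lines, the 4 libraries entered 1 fit of edgeR (quasi-likelihood test) with the line as a block. This leaves 1 residual degree of freedom, the difference between the responses of the 2 lines. The method also draws the spread of each gene toward that of other genes. Its p-values and the SEs, which were derived from its F statistic, therefore do not measure the agreement of the lines alone. At an adjusted p-value under 0.05, 7 members were higher and 0 lower, where 4.39% of 16801 genes were higher and 2.85% lower. Those 7 were ATF3, PPP1R15A, DDIT3, TRIB3, ATF4, EIF2AK3 and PPP1R15B. EIF2AK1, EIF2AK2 and EIF2AK4 did not pass. EIF2AK4, the 1 member with a negative change, had an unadjusted p-value of 0.0415 in edgeR and an adjusted p-value of 0.0620 in DESeq2. Without the line as a block edgeR called 0 of the 10 members and 0 of all genes, and 167 genes had an unadjusted p-value under 0.05.

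**Figure D2:**
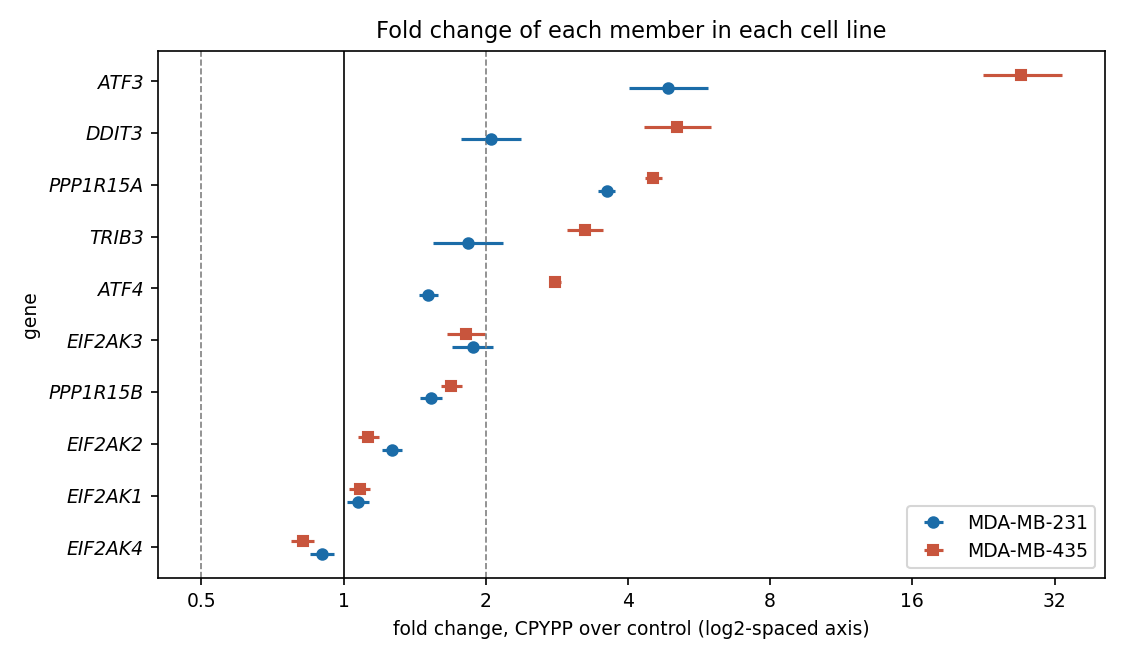
Fold change after CPYPP of each member in MDA-MB-231 (circles) and MDA-MB-435 (squares) on a log2-spaced axis, with 95% exact binomial intervals for counting error; dashed lines mark folds of 0.5 and 2. ATF3 reaches 27.2 in MDA-MB-435 and 4.86 in MDA-MB-231, and EIF2AK4 is the only member below 1 in both.

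Among the kinases, EIF2AK3 alone passed the test over both lines. EIF2AK3 (PERK) is the kinase of the endoplasmic reticulum membrane that senses misfolded protein, and lies on the minus strand at chr2:88556741-88691518. MDA-MB-231 gave 687 control and 944 CPYPP counts, against 810 and 1141 for MDA-MB-435. Both CPYPP libraries were above both controls, from 1.48 and 1.65 to 2.76 and 2.85 FPKM. Fold changes of 1.88 (1.70 to 2.07) for MDA-MB-231 and 1.82 (1.66 to 1.99) for MDA-MB-435 were under the size asked for in a call. Over both lines the log2 change was 0.84 ± 0.14 (SE), with an adjusted p-value of 0.00504 in edgeR. A higher fold change than that of EIF2AK3 was found for 1066 of 16441 genes in the former line and 887 of 16527 in the latter.

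EIF2AK2 (PKR) binds double-stranded RNA and is itself an interferon-stimulated gene, on the minus strand at chr2:37099210-37157522. Its counts went from 3388 in the control to 3143 with CPYPP in MDA-MB-231, whereas MDA-MB-435 had 3181 and 2781. Scaled for library size, the first pair corresponds to 13.7 and 17.2 FPKM, the second to 12.2 and 13.02 FPKM. The MDA-MB-231 CPYPP library was the highest of the 4. EIF2AK2 had fold changes of 1.27 (1.21 to 1.33) in MDA-MB-231 against 1.13 (1.07 to 1.19) in MDA-MB-435, and each remained above 1 under each normalization tried, at 1.02 with total counts in MDA-MB-435. Over both lines the log2 change of 0.21 ± 0.11 (SE) had an adjusted p-value of 0.324 in edgeR. GPATCH11 shares 35 bases with EIF2AK2 on the other strand and had fold changes of 1.09 and 0.883.

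EIF2AK1 (HRI), the kinase of heme shortage and mitochondrial stress, lies on the minus strand at chr7:6022247-6059175. MDA-MB-231 gave 3055 control and 2406 CPYPP counts, against 3005 and 2520 for MDA-MB-435. Its level moved little, between 23.1 and 26.5 FPKM over the 4 libraries. EIF2AK1 had fold changes of 1.07 (1.02 to 1.13) and 1.08 (1.03 to 1.14), and with total counts the MDA-MB-435 value turned to 0.975. The log2 change over both lines was 0.07 ± 0.11 (SE), with an adjusted p-value of 0.803 in edgeR. Its 3′ neighbour AIMP2, on the other strand with 1588 shared bases, had fold changes of 0.873 and 0.812.

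EIF2AK4 (GCN2), which responds to uncharged tRNA in amino acid shortage, lies on the plus strand at chr15:39934115-40035591. MDA-MB-231 gave 2752 control and 1817 CPYPP counts, against 3257 and 2071 for MDA-MB-435. Each CPYPP library lay below its control, at 9.17 against 10.2 FPKM and at 8.92 against 11.5 FPKM. With fold changes of 0.901 (0.849 to 0.957) and 0.820 (0.776 to 0.867), it stayed below 1 in both lines under every normalization tried. The common log2 change was -0.26 ± 0.11 (SE), with an adjusted p-value of 0.213 in edgeR. As shares of the summed FPKM of the 4 kinases, EIF2AK4 went from 20.4% to 16.5% (MDA-MB-231) and from 23.7% to 18.4% (MDA-MB-435), and EIF2AK3 from 2.95% to 4.96% and from 3.42% to 5.87%. EIF2AK1 kept between 47.6% and 49.4% in all libraries. These shares carry the limit on exon length given above.

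The phosphatase subunits recruit protein phosphatase 1 to eIF2-alpha, PPP1R15A (GADD34) as the inducible form and PPP1R15B (CReP) as the constitutive form. PPP1R15A, on the plus strand at chr19:48872421-48876058, had 3315 counts in the MDA-MB-231 control, which became 8752 with CPYPP. MDA-MB-435 had 2614 and 9182 counts. Both CPYPP libraries were far above both controls, at 173 and 155 FPKM against 48.3 and 36.0. It rose 3.60-fold (3.46 to 3.75) in MDA-MB-231 against 4.53-fold (4.34 to 4.73) in MDA-MB-435, and ranked 278th of 16441 and 97th of 16527 genes from the highest. The common log2 change was 1.97 ± 0.12 (SE), with an adjusted p-value of 1.01e-05 in edgeR, the smallest among the members.

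PPP1R15B, on the minus strand at chr1:204396492-204411887, rose less. MDA-MB-231 gave 2496 control and 2798 CPYPP counts, against 2429 and 3188 for MDA-MB-435. In FPKM it went from 11.9 to 18.1 and from 11.0 to 17.6, so the lines lay close together both in the control and in the CPYPP libraries. Fold changes were 1.53 (1.45 to 1.62) and 1.69 (1.60 to 1.78), and the log2 change over both lines was 0.64 ± 0.11 (SE), with an adjusted p-value of 0.00644 in edgeR. The FPKM of PPP1R15A was 4.05 times (3.84 to 4.26) that of PPP1R15B in the MDA-MB-231 control and 9.53 times (9.13 to 9.94) after CPYPP. In MDA-MB-435 the ratio went from 3.28 (3.10 to 3.47) to 8.77 (8.42 to 9.14). The antisense gene PPP1R15B-AS1, which overlaps 15396 bases, had at most 31 counts in any library.

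ATF4, the central transcription factor of the response, lies on the plus strand at chr22:39519695-39522683. MDA-MB-231 gave 3441 control and 3810 CPYPP counts, against 6689 and 14544 for MDA-MB-435. The MDA-MB-435 control, at 108 FPKM (105 to 111), was above the MDA-MB-231 library after CPYPP, at 88.2 FPKM (85.4 to 91.1). After CPYPP, ATF4 was 2.80-fold (2.72 to 2.89) higher in MDA-MB-435, against 1.51-fold (1.44 to 1.58) in the other line. Over both lines the log2 change was 1.00 ± 0.17 (SE), with an adjusted p-value of 0.00673 in edgeR and 0.0874 in DESeq2 with the same design. Of its copies by symbol, ATF4P3 had between 5 and 26 counts, and ATF4P1, ATF4P2 and ATF4P4 had at most 1 in any library. Adding them to ATF4 changed no call.

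ATF3 represses or activates stress genes as a partner of other bZIP proteins, and is known to be induced early in many kinds of stress. It lies on the plus strand at chr1:212565334-212620777. MDA-MB-231 had 142 control and 506 CPYPP counts, whereas MDA-MB-435 had 114 and 2406. The controls were close to each other and the CPYPP libraries far apart, at 7.58 FPKM in MDA-MB-231 and 30.8 FPKM in MDA-MB-435. The fold changes were 4.86 (4.03 to 5.90) and 27.2 (22.5 to 33.1), which ranked 134th of 16441 and 10th of 16527 genes. The common log2 change was 3.50 ± 0.43 (SE), the largest among the members, with an adjusted p-value of 0.00135 in edgeR.

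DDIT3 (CHOP), a bZIP factor tied to cell death under lasting stress, lies on the minus strand at chr12:57516588-57521737. MDA-MB-231 had 307 control and 462 CPYPP counts, whereas MDA-MB-435 had 190 and 749. The line with the lower control had the higher CPYPP library, from 6.14 to 29.6 FPKM in MDA-MB-435 against 10.5 to 21.4 FPKM in MDA-MB-231. The fold change of DDIT3 was 5.08 (4.33 to 5.99) for the former. The latter value of 2.05 (1.77 to 2.38) is just past the size asked for, and was 1.96 with total counts and 1.99 with the upper quartile. The common log2 change was 1.64 ± 0.26 (SE), with an adjusted p-value of 0.00427 in edgeR.

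Other genes overlap DDIT3, and whether reads were counted by strand is not stated. MARS1 shares 982 bases with it on the other strand, with fold changes of 1.20 (1.13 to 1.27) and 1.38 (1.32 to 1.45), and MBD6 shares 1028 bases, with 1.16 (0.991 to 1.37) and 0.985 (0.884 to 1.10). MARS1 and MBD6 thus changed far less than DDIT3 in MDA-MB-435. Within DDIT3 on the same strand, MIR616 had at most 10 counts and ENSG00000285133 had 0 in every library. Other genes that overlap members had few counts. ANKRD61 in EIF2AK1 and EIF2AK3-DT in EIF2AK3 had between 18 and 41 counts, ENSG00000288934 at PPP1R15B at most 16, ENSG00000225420 in EIF2AK3 at most 3 and ARL14EPP1 in EIF2AK2 at most 1. RN7SL851P and RNU6-218P in EIF2AK1 and H3P38 in EIF2AK4 had 0.

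TRIB3, a pseudokinase that binds ATF4 and CHOP and restrains them, lies on the plus strand at chr20:362835-397559. MDA-MB-231 had 242 control and 325 CPYPP counts, whereas MDA-MB-435 had 700 and 1762. As with ATF4, the MDA-MB-435 control was above the MDA-MB-231 CPYPP library, at 8.98 FPKM (8.33 to 9.67) against 5.97 (5.34 to 6.66). TRIB3 rose 3.25-fold (2.97 to 3.55) in MDA-MB-435, and its fold change in the other line was 1.83 (1.55 to 2.17). Over both lines the log2 change was 1.28 ± 0.19 (SE), with an adjusted p-value of 0.00315 in edgeR. The FPKM of TRIB3 was 0.0558 times that of ATF4 in the MDA-MB-231 control and 0.0677 times after CPYPP, whereas MDA-MB-435 had 0.0831 and 0.0962 times.

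In the control libraries the lines differed in some members. Between the control libraries, 1 member passed a fold of 2 with an interval that left out 1, where 21.3% of 18269 genes were higher in MDA-MB-435 and 20.5% higher in MDA-MB-231. That member was TRIB3, at 2.70 times (2.33 to 3.14) the MDA-MB-231 level in MDA-MB-435. ATF4 was 1.81 times (1.74 to 1.89) as high in MDA-MB-435. In the other direction DDIT3 was 1.73 times (1.44 to 2.09) and PPP1R15A 1.36 times (1.29 to 1.43) as high in MDA-MB-231. ATF3 was 1.34 times (1.04 to 1.72) as high in that line, with an interval that held 1 under total counts. The 4 kinases lay between 0.876 (EIF2AK2) and 1.10 (EIF2AK3 and EIF2AK4) times the MDA-MB-231 level, and PPP1R15B was at 0.908 times.

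In these libraries the downstream genes changed more in MDA-MB-435, and the kinases did not. The fold change of ATF3 in MDA-MB-435 was 5.60 times (4.26 to 7.36, exact conditional interval for counting error) that in MDA-MB-231, and that of DDIT3 2.47 times (1.99 to 3.09). These 2 members were past a ratio of 2, where 2.76% of the 14262 genes tested in both lines had a fold change over 2 times larger in MDA-MB-435 and 6.73% over 2 times larger in MDA-MB-231. ATF4 had a ratio of 1.86 (1.76 to 1.96) and TRIB3 of 1.77 (1.46 to 2.15). For the phosphatase subunits the ratio was 1.26 (1.18 to 1.33) in PPP1R15A and 1.11 (1.02 to 1.19) in PPP1R15B. By interval alone 6 members were above 1, as were 24.5% of genes. PPP1R15B was not among them with total counts (0.970 to 1.13), the upper quartile (0.981 to 1.14) or TMM over all 4 libraries (0.980 to 1.14), which left 5. EIF2AK2 at 0.890 (0.829 to 0.956) and EIF2AK4 at 0.910 (0.838 to 0.987) were below 1, as were 17.1%. EIF2AK1 at 1.01 (0.932 to 1.09), which was 0.952 with total counts, and EIF2AK3 at 0.969 (0.846 to 1.11) had intervals that held 1.

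Cultures of a line vary beyond counting error, and these libraries do not show by how much. The fit over both lines gave a biological coefficient of variation of 0.121. That value comes from how unlike the lines responded, not from repeat cultures. When a coefficient of 0.1 was assumed, the intervals of the ratio were above 1 for ATF3, DDIT3, ATF4 and TRIB3. With 0.2 they were above 1 for ATF3 (2.45 to 12.8) and DDIT3 (1.10 to 5.58), and with 0.4 for ATF3 alone (1.14 to 27.4). Within MDA-MB-435 all 5 calls held at 0.2, and at 0.4 ATF4 was lost (0.925 to 8.50). Within MDA-MB-231 the 3 calls held at 0.2, and at 0.4 DDIT3 was lost (0.671 to 6.28). At any size of change, 7 members had a fold change with an interval above 1 in each line at 0.1, and 0 below 1. The intervals of EIF2AK1, EIF2AK2 and EIF2AK4 then held 1 in both lines.

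**Figure D3:**
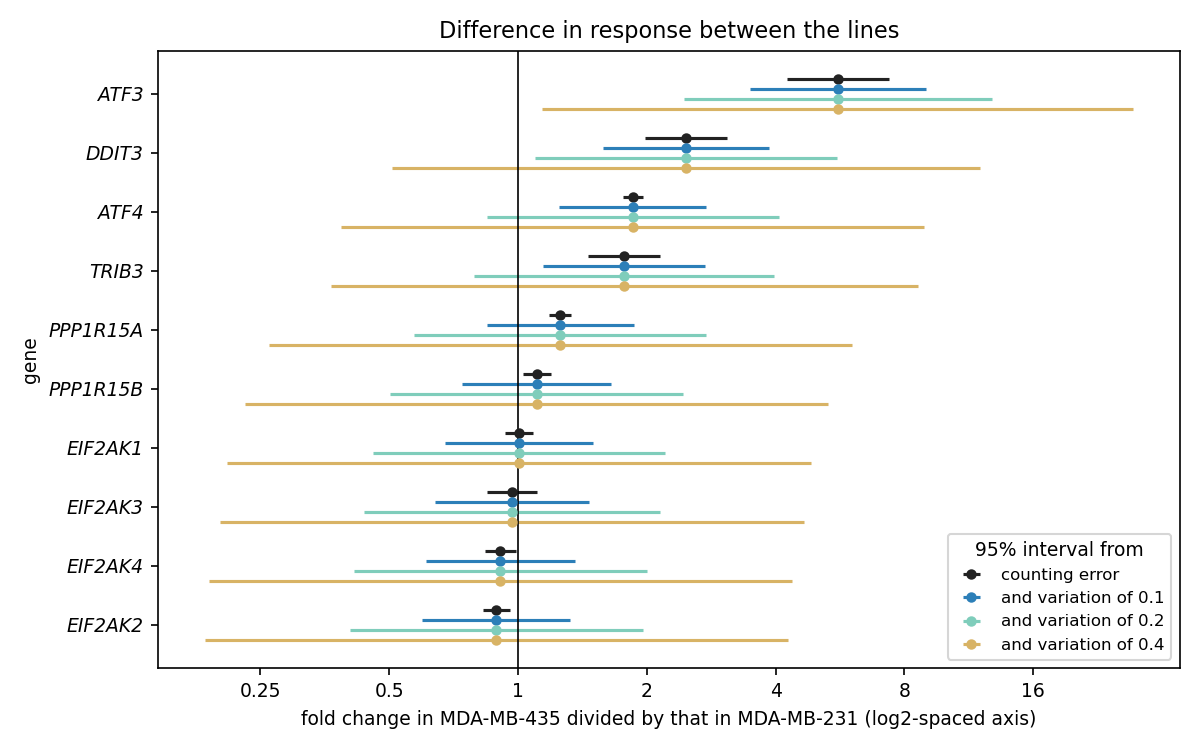
Fold change in MDA-MB-435 divided by that in MDA-MB-231 for each member, on a log2-spaced axis, with 95% intervals from counting error alone or with a biological coefficient of variation assumed at 0.1, 0.2 or 0.4. ATF3, at 5.60, stays above 1 under each assumption, whereas the intervals of the phosphatase subunits and the kinases hold 1 from 0.1 upward.

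The genes around the members were described by 6 lists. Of 32 target genes of ATF4 and CHOP, 30 were tested in each line. Of these, 14 were called higher in MDA-MB-435, 6 were called higher in the other line and 0 lower in either. Of all genes, 3.33% were called higher and 6.52% lower in MDA-MB-435, and 4.52% and 3.16% in the other line. The median log2 fold change of the list was 0.32 and 0.87 in the lines, beside -0.01 and -0.02 over all genes. CHAC1, which degrades glutathione, went from 42 to 242 counts in MDA-MB-231 but from 15 to 1054 in MDA-MB-435, fold changes of 7.86 (5.65 to 11.2) and 90.6 (54.7 to 162). SESN2, a stress-induced inhibitor of mTORC1 signalling, went from 109 to 456 counts in MDA-MB-231 but from 160 to 2719 in MDA-MB-435, with fold changes of 5.71 (4.62 to 7.10) and 21.9 (18.7 to 25.9). Of these lists, a gene named outside the 2 highest and 2 lowest was chosen for its value. At the other end of the target list, the proline synthesis gene ALDH18A1 had fold changes of 1.05 and 0.984, and the translation repressor gene EIF4EBP1 of 1.08 and 1.01. Over both lines 13 of 30 targets were higher at an adjusted p-value under 0.05 in edgeR and 12 in DESeq2. In either, 0 were lower, also at an unadjusted p-value under 0.05 in edgeR. Of all genes, edgeR gave 4.39% higher and 2.85% lower.

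Of the 30 targets tested in both lines, 23 (76.7%) had the larger fold change in MDA-MB-435, beside 53.5% of all genes. This was not particular to the targets. The larger fold change was also that of MDA-MB-435 for 8 of 8 bZIP partners, 9 of 11 regulators of the kinases and phosphatase and 7 of 8 eIF2 and eIF2B subunits, but for 8 of 15 genes of the IRE1 and ATF6 arms and 9 of 19 interferon-stimulated genes. The median log2 ratio of the fold changes was 0.37 for the targets and 0.42, 0.20, 0.28, 0.05 and -0.04 for these lists in turn, beside 0.03 over all genes. Of the targets, 10 had a fold change over 2 times larger in MDA-MB-435, where 2.76% of all genes had. None was over 2 times larger in MDA-MB-231, where 6.73% of genes were. The 10 were CHAC1, SESN2, DDIT4, GADD45A, MTHFD2, SLC7A11, SLC3A2, SLC7A5, NUPR1 and GDF15, a set chosen by their values.

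The dimerization partners of ATF4 and CHOP, themselves bZIP factors, formed a list of 10 genes. Of these 9 and 8 were tested, 2 were called higher in MDA-MB-435, and 1 was called higher (JDP2) and 1 lower (CEBPD) in the other line. Of all genes, 3.33% were called higher and 6.52% lower in MDA-MB-435, and 4.52% and 3.16% in MDA-MB-231. The median log2 fold changes of the list were 0.38 and 0.59. CEBPG, a partner of ATF4, had fold changes of 1.66 (1.55 to 1.78) and 3.06 (2.80 to 3.34), and CEBPB of 1.64 (1.45 to 1.85) and 2.40 (2.25 to 2.57). The log2 change over both lines was 1.12 ± 0.18 (SE) for CEBPG and 0.96 ± 0.15 for CEBPB, with adjusted p-values of 0.00427 and 0.00401 in edgeR. CEBPD, which went from 83 to 25 counts in MDA-MB-231 but from 51 to 42 in MDA-MB-435, had fold changes of 0.411 (0.252 to 0.650) and 1.06 (0.689 to 1.63), and ATF5 of 0.976 and 1.14. Over both lines edgeR gave 4 of 9 higher (CEBPG, CEBPB, JUN and NFE2L2) and 0 lower, where 4.39% of all genes were higher and 2.85% lower. At an unadjusted p-value under 0.05 in edgeR, or in DESeq2, 0 were lower.

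In the arms of the unfolded protein response that IRE1 and ATF6 govern, 3 of 15 genes were called higher in MDA-MB-435 (HERPUD1, DNAJB9 and XBP1). In the other line 2 were called higher (HERPUD1 and DNAJB9), and 0 were lower in either. Of all genes, 3.33% were called higher and 6.52% lower in MDA-MB-435, and 4.52% and 3.16% in MDA-MB-231. The median log2 fold changes of the list were 0.17 and 0.11. HERPUD1, which serves the degradation of misfolded proteins at the endoplasmic reticulum, had fold changes of 2.998 (2.74 to 3.28) and 3.51 (3.36 to 3.67). DNAJB9, a co-chaperone of the endoplasmic reticulum, had 2.88 (2.59 to 3.20) and 3.52 (3.16 to 3.92). CRELD2 and SDF2L1, which are also induced by stress in this compartment, had fold changes of 0.763 and 0.810, and of 0.819 and 0.895. Over both lines edgeR gave 5 of 15 genes higher (HERPUD1, DNAJB9, XBP1, ERN1 and HSPA5) and 0 lower, where 4.39% of all genes were higher and 2.85% lower. CRELD2 was lower at an unadjusted p-value of 0.0400 in edgeR, and DESeq2 gave 0 lower genes.

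The kinases act on eIF2, which eIF2B recharges. Of the 8 subunits of both factors 0 were called in either line, where 4.52% and 3.33% of all genes were called higher, so the count does not set them apart, and the median log2 fold changes were -0.11 and 0.001. EIF2S2 had the highest fold changes, 1.17 and 1.46, followed by EIF2S1, the phosphorylated alpha subunit, at 1.06 and 1.30. EIF2B4 (0.768 and 0.947) and EIF2B1 (0.819 and 0.917) had the lowest. In edgeR over both lines 0 of the 8 passed, with 1 higher (EIF2S2) and 1 lower (EIF2B1) at an unadjusted p-value under 0.05, and in DESeq2 1 was higher (EIF2S2 again, adjusted p-value 0.0256).

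Of 11 regulators of the kinases and the phosphatase, 0 were called in either line, again near those shares, and the median log2 fold changes were -0.06 and 0.07. DNAJC3, an inhibitor of PKR and PERK, had fold changes of 1.37 (1.29 to 1.46) and 1.58 (1.49 to 1.68) and was the 1 gene of the list that passed over both lines, with a log2 change of 0.52 ± 0.11 (SE) and an adjusted p-value of 0.0219 in edgeR. NCK1 had 1.17 and 1.57, IMPACT, an inhibitor of GCN2, 0.757 and 0.997, and OMA1, the mitochondrial protease that acts ahead of HRI, 0.945 and 0.949.

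EIF2AK2 belongs to the interferon-stimulated genes. Of 19 others, 0 were called higher and 0 lower in either line, so the count does not set them apart. Of all genes, 4.52% (MDA-MB-231) and 3.33% (MDA-MB-435) were called higher, and 3.16% and 6.52% lower. The median log2 fold changes of the list were -0.03 and 0.02. In edgeR over both lines 0 passed, where 4.39% of all genes were higher and 2.85% lower. At an unadjusted p-value under 0.05 in edgeR 1 was lower (OAS3), which in DESeq2 had an adjusted p-value of 0.0182. The highest were IRF7 with fold changes of 1.30 (0.984 to 1.72) and 1.33 (1.04 to 1.70) and IRF1 with 1.21 and 1.33. The lowest were OAS3 with 0.826 and 0.767 and OAS2 with 0.915 and 0.799.

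**Figure D4:**
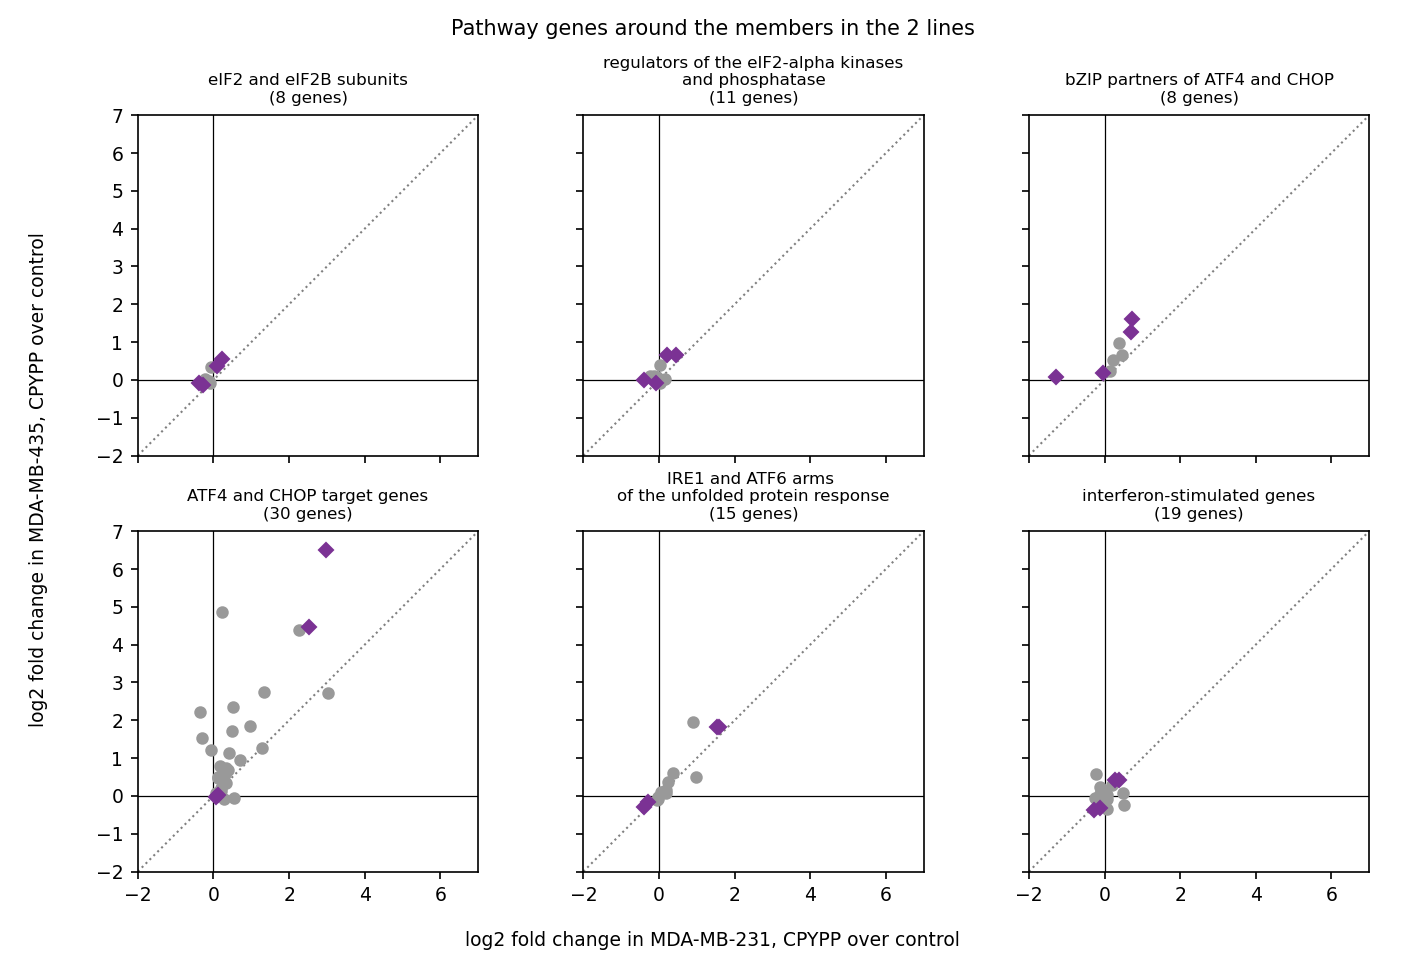
Log2 fold change after CPYPP in MDA-MB-231 (horizontal) and MDA-MB-435 (vertical) of the genes of 6 lists tested in both lines, 1 point per gene, with diamonds for the 2 highest and 2 lowest of each list and a dotted line where the lines are equal. Targets of ATF4 and CHOP lie mostly above the dotted line, with CHAC1 at 2.98 and 6.50, while eIF2 subunits, kinase regulators and interferon-stimulated genes gather near 0.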

How the data were processed

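The authors deposited raw read counts per gene for 4 poly(A) libraries, 1 per condition, with positions and exon lengths. The submitters' processing notes name cutadapt 1.9.1, HISAT2 2.2.1, HTSeq 0.6.1, DESeq2 and GRCh37.p13, but 58241 of the 58254 gene identifiers shared with GENCODE v29 overlap their GRCh38 positions, so the coordinates are given as GRCh38. The strand setting is not given in the sources used here, and multi-mapped reads may move counts between a gene and its copies.

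Counts were normalized within each line by TMM (edgeR 4.0.16, R 4.3.3) over genes that reached 10 counts in 1 or both libraries. Counts under 3 were set to 3 for fold changes. Intervals were computed in Python 3.11.15 with scipy 1.17.1, and the exact ones for the ratio of fold changes in R. They cover counting error only, since each condition had 1 library. They treat reads as independent molecules, which reads amplified by PCR are not. At 17196385 to 22663954 counts per library, intervals are wide for a gene near 10 counts and narrow as counts rise. The common effect used edgeR after filterByExpr with the line as a block and Benjamini-Hochberg adjustment, and DESeq2 1.42.0 as an alternative. Assumed coefficients of variation were added to the log-scale variance. Only the edgeR fit over both lines and the fold changes and calls within a line were tested on simulated data.

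The members and lists were chosen with earlier results of these data known. Named genes are the members, the 2 highest and 2 lowest of each list by mean log2 fold change among genes tested in both lines, genes that overlap a member, and copies by symbol. The list gene RIGI stands in the table as DDX58. Alternatives covered normalization, filters, fold thresholds, assumed variation and the summing of copies, and TMM over all 4 libraries was added after seeing the data.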

Additional observations from a re-analysis of the deposited data

How the results depend on the processing

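In each normalization, filter and assumed variation tried, the members called were higher ones, and the number called lower was 0. Fold thresholds moved the members called higher most: MDA-MB-231 had 7 at a fold over 1.5 and 1 at a fold over 4, and MDA-MB-435 had 3 at a fold over 4. Against TMM, total counts moved the median of all genes by -0.07 (log2, MDA-MB-231) and -0.15 (MDA-MB-435), and higher genes went from 58.8% to 52.1% and from 33.8% to 21.2% of all calls. The common log2 change of EIF2AK1 turned to -0.00099 with total counts, which also took the 1 higher bZIP partner in MDA-MB-231 to 0. Members whose interval for the ratio of fold changes lay above 1 numbered 2 and 1 at assumed variations of 0.2 and 0.4. Members past a fold of 2 between the controls numbered 0 at 0.4.

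Over all genes, higher calls in MDA-MB-231 numbered 1501 at a fold over 1.5, 220 over 4, 477 with 10 counts in both libraries, 199 where the interval left out every fold of 2 or less and 200 at an assumed variation of 0.4. Lower calls were 1154, 96, 282, 84 and 68, and 893 without an interval. In MDA-MB-435 higher calls were 1421 at 1.5, 140 at 4, 217 by the stricter interval and 137 at a variation of 0.4, and lower calls 1953, 237, 207 and 200, and 612 with 10 counts in both libraries. The common effect gave 1263 higher and 868 lower in DESeq2, where 4235 genes had no adjusted p-value, 1116 and 885 without a filter, and 0 and 0 without the block, which also left 0 members. Lower genes were 1087 with total counts and 812 with the upper quartile. The cause of these shifts was not tested. The block pairs the control and CPYPP libraries of a line, and its 1 residual degree of freedom is the difference between the lines' responses. There was no replicate to leave out. With 1 library per condition, depth limits the precision of low counts and the variation between cultures is unknown.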
